A study of Mus musculus with 11 samples.

Results

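The mitochondrial ribosomal protein genes were examined in peritoneal macrophages of female mice, elicited with thioglycollate, an irritant broth that draws macrophages into the peritoneal cavity. In the comparison, 5 libraries (replicates 1, 2, 3, 4 and 6) had received a negative control and 6 libraries (replicates 1 to 6) had received a microRNA-150 mimic. The series title places the work in the study of abnormal blood vessel growth in age-related macular degeneration. The strain, age, dose and treatment time of the mice and cells are not given in the sources used here, and the origin of the replicates (animal or culture) is not among the labels, so p-values measure the spread between these libraries. The submitters state that a further library was omitted for improper fragmentation. Members were the protein-coding genes named Mrpl or Mrps followed by a number, and 76 genes of the 31936 in the table carried such a name. Of these, 74 reached a log2 CPM (log2 of read counts scaled to a common library size) of at least -1 in at least 5 libraries and were tested, among 12969 genes tested in all. Mrps23 and Mrpl53 did not reach that level, with 5 and 13 reads over all control libraries and 19 and 10 over all mimic libraries. Just above the limit lay Mrpl23, Mrps36 and Mrps6, with control means of 0.38, 1.73 and 1.92 log2 CPM. Mrpl33 was not analysed here. Mrps36 is carried along by its name although its product is known as a component of the oxoglutarate dehydrogenase complex, and Mrps18a and Mrps30 were counted with the large subunit, where their products sit.

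Mitochondria keep their own ribosome, built from RNA transcribed from the mitochondrial genome and from proteins that are all encoded in the nucleus, made in the cytosol and imported. This ribosome translates only the messages of the mitochondrial genome, which encode core subunits of the respiratory chain and of ATP synthase. Its large subunit joins amino acids and is anchored to the inner membrane near the tunnel exit, and its small subunit reads the messenger RNA. Part of its proteins descend from bacterial ribosomal proteins, and the rest are found only in mitochondrial ribosomes.

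Library depth was 18538509 to 25473814 reads, recovered from the steps of the deposited values. The macrophage identity of the libraries was checked with 7 markers, all tested: Lyz2 stood at 13.66 log2 CPM, Cd68 at 11.47 and Adgre1 at 9.46 in the control mean. Of these markers, Fcgr1 (log2 fold change 1.32) and Adgre1 (0.18) were called higher and Lyz2 (-0.23) lower with the mimic. No T cell, B cell, mast cell or NK cell marker (3 of 3 in each list) reached the level for testing, with 1 to 51 reads per gene over a whole group. Of the neutrophil markers, Ly6g, S100a9 and Mpo had 0 to 7 reads over a group and S100a8 had a level of 12.9 to 16.3 CPM in control and 7.96 to 14.6 in mimic libraries. Of the eosinophil markers, Epx and Prg2 had 2 to 10 reads over a group and Siglecf had a level of 33.0 to 36.1 CPM in control and 26.8 to 28.4 CPM in mimic libraries. S100a8 (log2 fold change -0.56) and Siglecf (-0.31) were both called lower. The 4 mesothelial or fibroblast markers were tested and limma called none (0 at an unadjusted p below 0.05, and 1 lower with voom weights), with sums of 17.4 to 25.8 and 10.5 to 26.7 CPM. The part of these other cells in the values below was not tested. In bulk RNA, fewer cells of a type and less RNA per cell cannot be told apart.

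More mitoribosomal genes were lower with microRNA-150 than were higher, and most did not pass the test. With limma across all genes and an adjusted p below 0.05, 20 of 74 members were lower (27.0%, against 14.6% of all genes tested), 4 were higher (5.41%, against 15.4%) and 50 were not called (30% of all genes were called in either direction). The median log2 fold change of the members was -0.11, and that of all genes tested was 0.00071. In all, 54 members had a negative and 20 a positive log2 fold change. The changes were small: the 20 lower members lay 1.12-fold to 1.46-fold below control and the 4 higher members 1.11-fold to 1.18-fold above it. In 4 members every mimic library stood above every control library (8.89% of all genes), and in 2, Mrpl34 and Mrpl48, every mimic library stood below (6.04% of all genes). In the authors' deposited table, 17 members were lower (10.5% of the genes tested here) and 2 higher (11.1%) at an adjusted p below 0.05, and the sign matched that of limma here for 73 of 74.

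**Figure D1:**
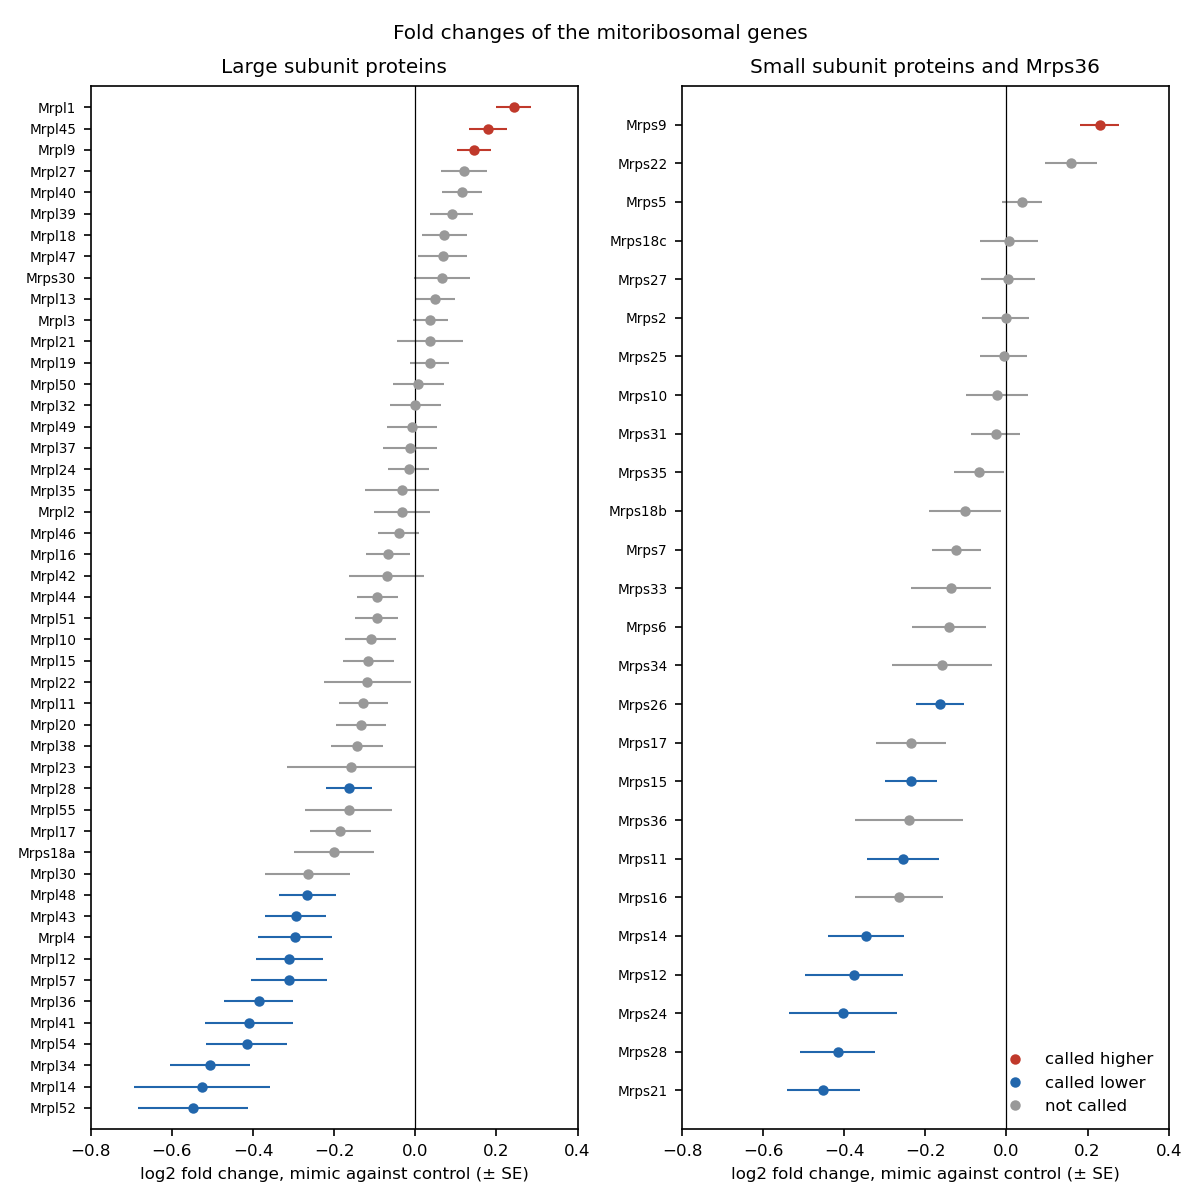
Log2 fold change (horizontal axis, mimic against control, bars show the SE) of each of the 74 tested members (vertical axis), ordered by value, with large subunit proteins on the left and small subunit proteins and Mrps36 on the right. Red points are the 4 members called higher, blue points the 20 called lower and grey points the 50 not called. The blue points run from -0.16 for Mrpl28 and Mrps26 to -0.55 for Mrpl52.

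Promoters of 4 members, the higher-called pair and the lower-called pair of smallest p in the large and the small subunit, are shown to place the motifs searched in them. Each is a window of 300 bases around the annotated start in RefSeq (GRCm38.p6), written 5′ to 3′ on the gene's strand, with capitals for a match to the motif of nuclear respiratory factor 1 (the letters GCGCA, any base, then GCGC) or to a core motif of ETS family factors (CCGGAAG), on either strand. Both factor families are known activators of nuclear genes for mitochondrial proteins. Mrpl1 lies at chr5:96209865-96210164 on the plus strand, Mrps9 at chr1:42850983-42851282 on the plus strand, Mrpl34 at chr8:71464676-71464975 on the plus strand and Mrps21 at chr3:95871465-95871764 on the minus strand.
Mrpl1: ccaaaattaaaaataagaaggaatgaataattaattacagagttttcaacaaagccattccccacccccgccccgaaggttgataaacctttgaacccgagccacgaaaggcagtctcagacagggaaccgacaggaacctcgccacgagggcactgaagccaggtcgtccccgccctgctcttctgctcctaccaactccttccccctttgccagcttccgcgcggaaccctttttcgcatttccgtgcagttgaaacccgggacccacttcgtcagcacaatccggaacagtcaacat
Mrps9: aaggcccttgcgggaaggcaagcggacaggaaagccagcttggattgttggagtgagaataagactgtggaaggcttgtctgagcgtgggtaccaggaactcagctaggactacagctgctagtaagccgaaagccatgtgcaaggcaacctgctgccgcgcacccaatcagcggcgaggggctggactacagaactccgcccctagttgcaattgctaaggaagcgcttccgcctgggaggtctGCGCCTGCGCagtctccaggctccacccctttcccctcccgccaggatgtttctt
Mrpl34: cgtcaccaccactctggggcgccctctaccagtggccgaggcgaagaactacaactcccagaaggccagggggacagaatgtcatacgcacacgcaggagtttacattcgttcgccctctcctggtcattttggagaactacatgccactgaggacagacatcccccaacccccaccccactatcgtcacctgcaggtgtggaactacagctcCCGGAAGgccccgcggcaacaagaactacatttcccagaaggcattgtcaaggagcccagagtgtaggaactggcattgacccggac
Mrps21: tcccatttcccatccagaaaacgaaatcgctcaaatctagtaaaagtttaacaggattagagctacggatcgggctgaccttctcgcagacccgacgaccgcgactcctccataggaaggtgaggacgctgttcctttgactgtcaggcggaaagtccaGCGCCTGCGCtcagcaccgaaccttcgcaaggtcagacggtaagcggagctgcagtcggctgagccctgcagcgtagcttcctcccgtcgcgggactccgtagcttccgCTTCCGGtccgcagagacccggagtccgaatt
Promoters were found for 65 of the 74 members, 71 promoters in all. The nuclear respiratory factor motif stood in 18.3% of the 71 and in 4.60% of all 32851 promoters, and the ETS motif in 31.0% and 8.86%. By gene, the first motif was present in 3 of the 4 higher and 5 of 17 lower members, and the second in 0 of 4 and 8 of 17. Of the promoters printed, that of Mrpl1 holds neither motif, that of Mrps9 holds the first, that of Mrpl34 the second and that of Mrps21 both. The windows hold these shares of the transcript starts annotated in GENCODE: 2 of 3 for Mrpl1, 3 of 7 for Mrps9, 1 of 1 for Mrpl34 and 1 of 4 for Mrps21. The outermost annotated start of Mrpl1, at 96209493, lies outside its window.

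The 4 members that rose were Mrpl1, Mrpl9 and Mrpl45 of the large subunit and Mrps9 of the small subunit. Mrpl1 (ENSMUSG00000029486, GRCm38 chr5:96209493-96266727) encodes the protein of the mobile stalk beside the site where used transfer RNA leaves. It stood at 4.56, 4.52, 4.56, 4.55 and 4.48 log2 CPM in control replicates 1, 2, 3, 4 and 6 and at 4.73 to 4.87 in the mimic libraries, with a median of 4.76. The groups did not overlap. It rose by 0.24 ± 0.044 (SE) on the log2 scale, a rise of 18.3% (limma adjusted p = 0.00083). Mrps9 (ENSMUSG00000060679, chr1:42851233-42905683) encodes a protein of the small subunit's head. Its control values were 4.86, 4.82, 4.76, 4.75 and 4.86 log2 CPM, and its mimic values ran from 4.95 to 5.13 with a median of 5.03. All mimic libraries again stood above all controls, and the log2 rise was 0.23 ± 0.048 (SE; limma adjusted p = 0.00274). Mrpl45 (ENSMUSG00000018882, chr11:97315716-97329920), whose product lines the tunnel exit and holds the ribosome to the inner membrane, measured 4.11, 4.15, 4.15, 4.02 and 4.11 log2 CPM in control and 4.20 to 4.35 (median 4.30) in mimic libraries. Every mimic library stood above every control, with a log2 rise of 0.18 ± 0.048 (SE; limma adjusted p = 0.0117). Mrpl9 (ENSMUSG00000028140, chr3:94443318-94451130), whose product lies near the base of the Mrpl1 stalk, measured 4.98, 5.02, 5.05, 5.05 and 4.96 log2 CPM in control and 5.11 to 5.22 (median 5.14) in mimic libraries. These groups were also separate, with a log2 rise of 0.14 ± 0.041 (SE; limma adjusted p = 0.0168).

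In the large subunit, 12 of 48 tested members were lower and 3 higher (25% and 6.25%, against 14.6% and 15.4% of all genes). The median log2 fold change was -0.09. Mrpl34 (ENSMUSG00000034880, chr8:71464959-71465747) encodes a small RNA-binding protein of bacterial descent. It stood at 4.54, 4.53, 4.53, 4.63 and 4.60 log2 CPM in control libraries and at 3.82 to 4.49 in mimic libraries, with a median of 3.99. Mimic replicate 1 (4.49) lay just under the lowest control and the other mimic libraries well under it. Mrpl34 fell by 0.51 ± 0.098 (SE) on the log2 scale, and in linear terms it fell by 29.6% (limma adjusted p = 0.00162). Mrpl52 (ENSMUSG00000010406, chr14:54426909-54429756), a protein found only in mitochondrial ribosomes, had the most negative member value, -0.55 ± 0.135 (SE; limma adjusted p = 0.0101). Its log2 CPM was 5.41, 5.66, 5.55, 5.47 and 5.60 in control and 4.68 to 5.61 (median 4.88) in mimic libraries, and mimic replicate 1, at 5.61, was the only mimic library within the control range. Mrpl14 (ENSMUSG00000023939, chr17:45686322-45698495), which faces the small subunit, stood at 3.42, 3.45, 3.47, 3.42 and 3.46 log2 CPM in control and at 2.55 to 3.72 (median 2.83) in mimic libraries. Here mimic replicate 1, at 3.72, lay above every control and the other 5 below every control. The log2 difference was -0.53 ± 0.168 (SE; limma adjusted p = 0.031), and the call was lost without any single one of the 5 control libraries or of mimic replicates 3, 4 and 6 (adjusted p = 0.05189 to 0.07469).

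Mrpl36 (ENSMUSG00000021607, chr13:73328513-73332178), a very short zinc-binding protein in its bacterial form, measured 5.22, 5.22, 5.27, 5.29 and 5.19 log2 CPM in control and 4.64 to 5.23 (median 4.79) in mimic libraries. It fell by 0.39 ± 0.085 (SE; limma adjusted p = 0.00404) on the log2 scale. Mrpl43 (ENSMUSG00000025208, chr19:45004829-45006442), found only in mitochondrial ribosomes, measured 5.12, 5.08, 5.08, 5.04 and 5.15 in control and 4.58 to 5.05 (median 4.79) in mimic libraries, with a log2 fall of 0.30 ± 0.074 (SE; limma adjusted p = 0.00844). In both genes mimic replicate 1 lay within the control range and the other 5 mimic libraries below it. The remaining lower members of the large subunit, outside its stalk and central protuberance, were Mrpl41 (log2 fold change -0.41), Mrpl57 (-0.31), Mrpl4 (-0.30) and Mrpl28 (-0.16), with limma adjusted p of 0.0118 to 0.0379; with the rest of the small subunit below, they are named because they complete the called members, after their values were seen.

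The small subunit had 8 of 25 tested members lower and 1 higher (32% and 4%, against 14.6% and 15.4% of all genes). The median log2 fold change was -0.14. Mrps21 (ENSMUSG00000054312, chr3:95862634-95871519), of the small subunit's platform, stood at 5.05, 5.17, 5.21, 5.06 and 5.18 log2 CPM in control and at 4.51 to 5.13 (median 4.59) in mimic libraries. Only mimic replicate 1 reached the control range. It fell by 0.45 ± 0.089 (SE; limma adjusted p = 0.00186) on the log2 scale and, in linear terms, fell by 26.9%. Mrps28 (ENSMUSG00000040269, chr3:8802146-8923918), the relative of bacterial protein S1, stood at 3.49, 3.47, 3.67, 3.55 and 3.55 log2 CPM in control and at 2.94 to 3.52 (median 3.07) in mimic libraries. Again only mimic replicate 1 lay within the control range, and the log2 fall was 0.42 ± 0.093 (SE; limma adjusted p = 0.00414). Mrps12 (ENSMUSG00000045948, chr7:28739641-28741820), whose product guards decoding accuracy, measured 4.55, 4.65, 4.56, 4.51 and 4.73 log2 CPM in control and 3.90 to 4.78 (median 4.15) in mimic libraries. Mimic replicate 1 was above every control and the other mimic libraries below every control. Its log2 difference was -0.38 ± 0.121 (SE; limma adjusted p = 0.0309), and leaving out control replicate 2, 3 or 6, or mimic replicate 2, 3, 4 or 6, ended the call (adjusted p = 0.05039 to 0.07328). The other lower members were Mrps24 (-0.40), Mrps14 (-0.35), Mrps11 (-0.26), Mrps15 (-0.24) and Mrps26 (-0.16), with limma adjusted p of 0.012 to 0.0424.

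**Figure D2:**
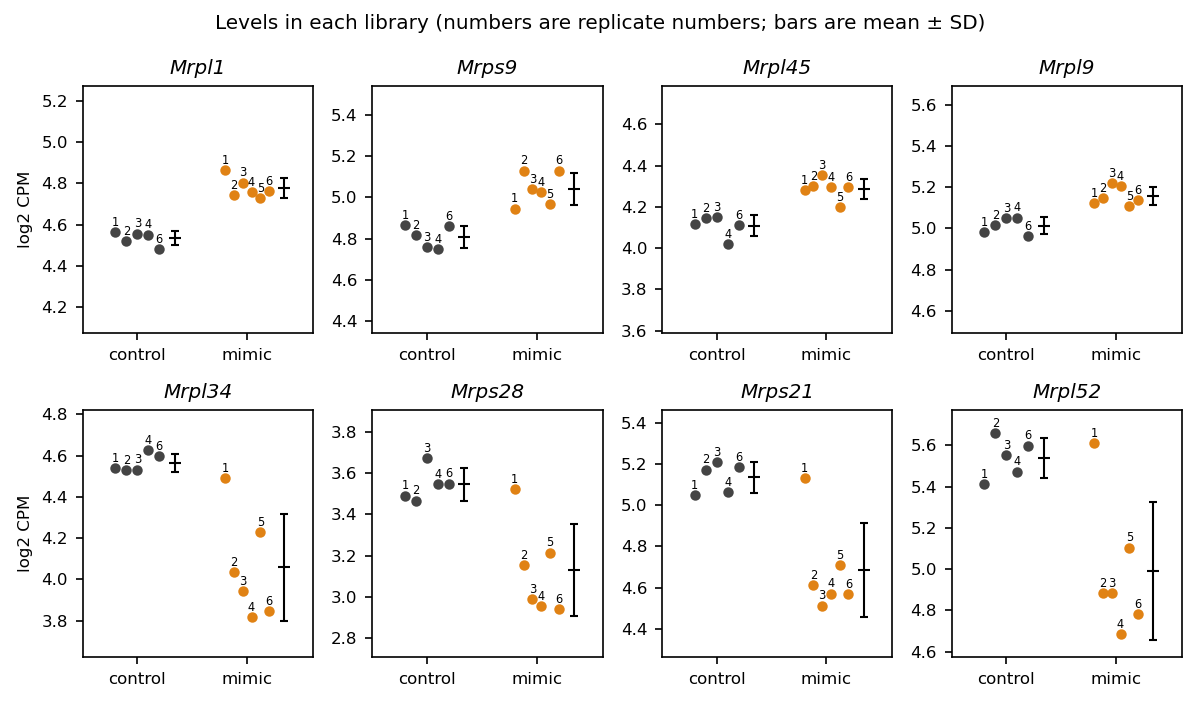
Log2 CPM (vertical axis) in each library of the control (grey) and mimic (orange) groups for the 4 higher members (top) and 4 lower members (bottom); each point carries its replicate number, and bars show the mean ± SD. In the top panels the groups are separate, and in the bottom panels mimic replicate 1 stays near the controls while replicates 2 to 6 lie lower.

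The functional regions of the large subunit held few calls each, and over all genes 14.6% were lower and 15.4% higher. The stalk counted here is the one that recruits translation factors. Mrpl1, of the mobile stalk, and Mrpl9, both called higher above, were not counted with it. Of its 4 tested proteins, 2 were lower and none higher: Mrpl12, the repeated stalk protein (log2 fold change -0.31 ± 0.083 SE, limma adjusted p = 0.0117), and Mrpl54 (-0.42 ± 0.099 SE, limma adjusted p = 0.00661). Mrpl12 measured 3.99, 4.21, 4.21, 4.15 and 4.17 log2 CPM in control and 3.58 to 4.12 (median 3.82) in mimic libraries, and mimic replicate 5, at 4.12, was the one that overlapped the controls. Mrpl54 measured 4.54, 4.58, 4.65, 4.71 and 4.74 in control and 4.01 to 4.67 (median 4.15) in mimic libraries, with mimic replicate 1 within the control range. Of 6 proteins at the tunnel exit only Mrpl45 passed, and the median was -0.07. Of 5 proteins of the central protuberance, which bridges to the small subunit, only Mrpl48 passed, with control values of 4.33, 4.28, 4.30, 4.27 and 4.27 and mimic values of 3.76 to 4.20 (median 4.05). Every mimic library stood below every control, and the log2 fall was 0.27 ± 0.071 (SE, limma adjusted p = 0.0111). The medians of the stalk, exit and protuberance members were -0.22, -0.07 and -0.04, and after the transcript length correction -0.15, 0.08 and 0.10. Under that correction Mrpl18 (0.20) and Mrpl40 (0.24) of the protuberance were called higher (limma adjusted p = 0.0107 and 0.00234). These 2 are named after their values were seen. By the unified ribosomal protein names, members with a bacterial relative had 13 of 45 lower (28.9%) and 3 higher (6.67%), with a median of -0.12. Members named as mitochondrial only, Mrps18a and Mrps18b among them, had 7 of 28 lower (25%) and 1 higher (3.57%), with a median of -0.08. These 2 family medians are given side by side and their difference was not tested.

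The 50 members without a call had log2 fold changes of -0.27 (Mrpl30) to 0.16 (Mrps22). Mrps17 came closest to the threshold, at -0.23 ± 0.086 (SE; limma adjusted p = 0.0506). Mrps17 was called lower in 9 of 24 alternatives, among them scaling by library totals (limma adjusted p = 0.02538) and omission of mimic replicate 1 (limma adjusted p = 0.003022). After the coding length correction it measured -0.05 (limma adjusted p = 0.444). The 3 relatives of bacterial protein S18, which occupy different places in the ribosome, measured -0.20 ± 0.098 for Mrps18a of the large subunit, -0.10 ± 0.088 for Mrps18b and 0.01 ± 0.071 for Mrps18c of the small subunit (SE; limma adjusted p = 0.135, 0.398 and 0.95). Without mimic replicate 1, Mrps18a measured -0.27 and was called lower (adjusted p = 0.008152). Mrps18c was called higher after the transcript length correction (0.20, adjusted p = 0.008) and the coding length correction (0.15, adjusted p = 0.0382). Mrps30 measured 0.07 ± 0.069 (SE; limma adjusted p = 0.491) and Mrps36, the dehydrogenase component, -0.24 ± 0.133 (SE; limma adjusted p = 0.177). Mrpl20, with a control mean of 5.57 log2 CPM, measured -0.13 ± 0.061 (SE; limma adjusted p = 0.107), and Mrpl23, with 132 reads over the control and 161 over the mimic libraries, measured -0.16 ± 0.158 (SE; limma adjusted p = 0.469).

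Per kilobase of coding sequence the control levels of the 74 members had a median of 5.04 (log2 CPM per kilobase). The highest on this scale were Mrps21 (7.07), Mrpl52 (7.00), Mrpl36 (6.95), Mrps17 (6.93) and Mrpl20 (6.73), and the lowest were Mrpl23 (1.34), Mrps27 (2.85) and Mrps30 (3.26). The 3 highest on the coding scale were among the called-lower members. All 3 have short coding sequences, of 261, 363 and 306 bases. Per kilobase of the longest annotated transcript, the median of the members was 3.43. On that scale Mrps21, Mrpl52, Mrpl36 and Mrpl20 stood at 6.17, 5.76, 5.36 and 5.87, but Mrps17 stood at 3.12, below the median.

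The lower values were not shared evenly by the mimic libraries. The median difference of the 74 members from their control means was 0.07 in mimic replicate 1, -0.10 in replicate 2, -0.19 in replicate 3, -0.23 in replicate 4, -0.02 in replicate 5 and -0.19 in replicate 6, against -0.02 to 0.02 in the control libraries. In mimic replicate 4, 63 of 74 members lay below their control mean, and in mimic replicate 1, 22 did. The median SD over members was 0.142 in the mimic group and 0.069 in the control group, and the mimic SD was the larger for 63 members. Of the 20 called-lower members, 16 had exactly 5 mimic libraries under the lowest control, and for 15 of these the exception was replicate 1. The called-higher members, which were chosen from these same libraries, had medians of 0.13 to 0.24 above the control mean in each of the 6 mimic libraries.

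**Figure D3:**
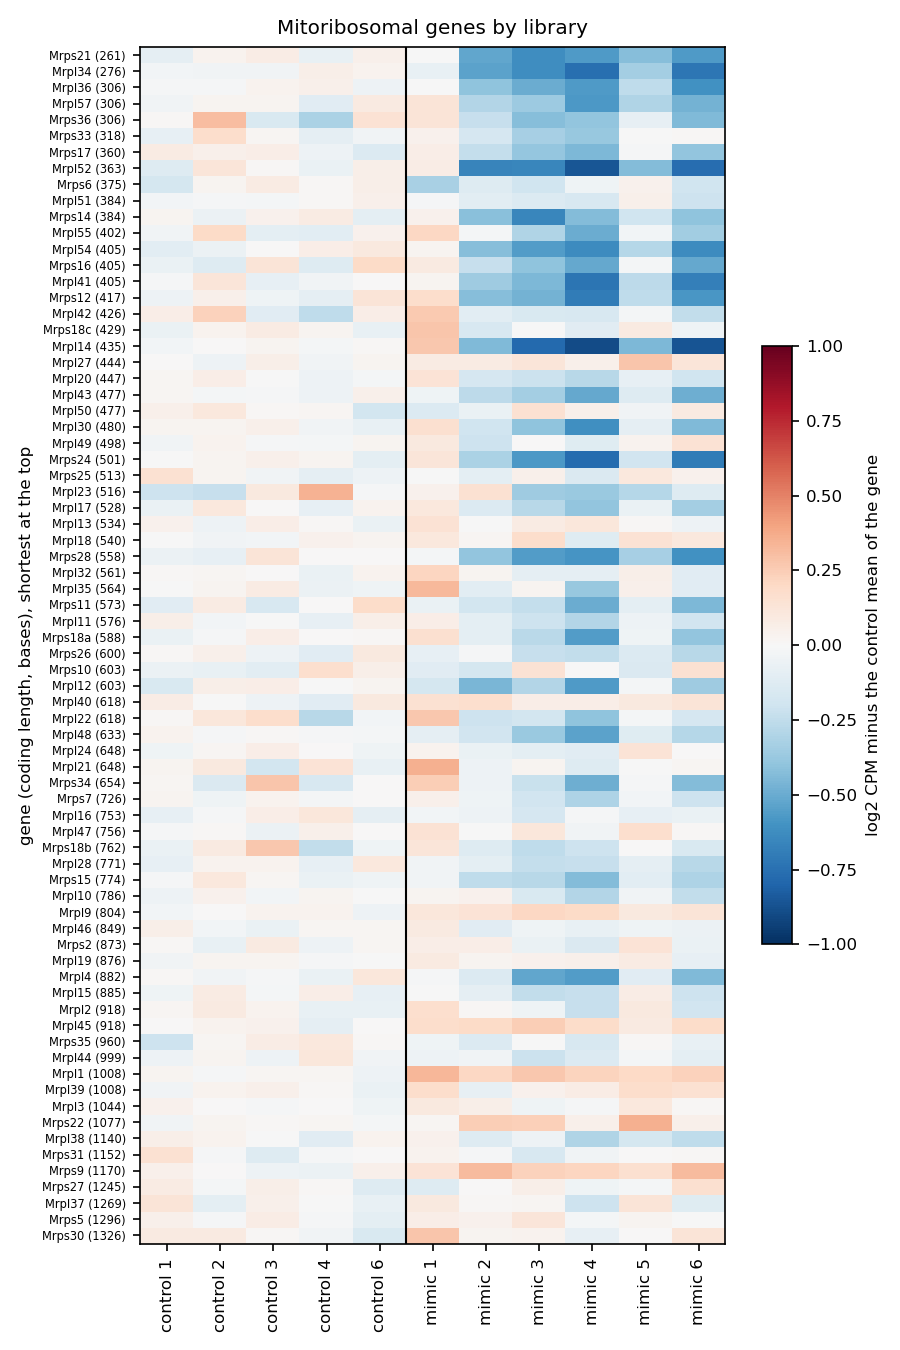
Log2 CPM minus the gene's control mean (colour, blue lower and red higher) for the 74 members (vertical axis, ordered by coding length in bases, shortest at the top) in the 5 control and 6 mimic libraries (horizontal axis). Blue concentrates in the upper rows of mimic replicates 2, 3, 4 and 6, and mimic replicate 1 is mostly pale or red.

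Leaving out mimic replicates 3, 4 and 6 together, which stood apart in earlier results of these data, left 3 members higher (Mrpl1, Mrps9 and Mrps22; 9.36% of all genes higher) and 3 lower (Mrpl34, Mrpl36 and Mrps28; 6.83% lower and 16.2% in either direction), with a median of -0.03. Of the 20 lower members, 3 kept their call in that fit. All 20 had a negative value in it, from -0.08 to -0.34, and Mrps21 measured -0.32 (limma adjusted p = 0.0956). The 20 were chosen as lower by a fit that held these same libraries, so the shared sign is no separate support. Without mimic replicate 1, 30 members were lower (19.3% of all genes) and 5 higher (20.8%). Without control replicate 6, mimic replicate 3 or mimic replicate 6, 13 members were lower in each case, against 11%, 11.2% and 10.8% of all genes. With voom sample weights, which give noisier libraries less influence, 31 members were lower (20.5% of all genes) and 5 higher (22.8%; 43.3% in either direction). What sets these libraries apart was not tested.

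The direction of a member went with the length of its coding sequence. The median coding length was 456 bases for the lower members (261 to 882), 963 for the higher (804 to 1170) and 618 for those not called, against 594 over all members and 1395 over all genes tested. Of the 19 members with the shortest coding sequences (261 to 435 bases) 10 were lower, none higher, and the median log2 fold change was -0.31. Of the 18 members of 444 to 588 bases 4 were lower and none higher (median -0.13), and of the 18 of 600 to 849 bases 5 were lower and 1 higher (median -0.11). Of the 19 longest (873 to 1326 bases) 1 was lower, Mrpl4, and 3 were higher, with a median of 0.0039. Over all genes tested, whatever their length, 14.6% were lower and 15.4% higher. Across the 74 genes, log2 fold change and log2 coding length had Pearson r = 0.62 and Spearman rho = 0.59, as a description of genes that share the same 11 libraries and are not independent. Over 11729 genes with a coding sequence the values were 0.19 and 0.25. For the longest annotated transcript they were 0.45 and 0.41 over the members.

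**Figure D4:**
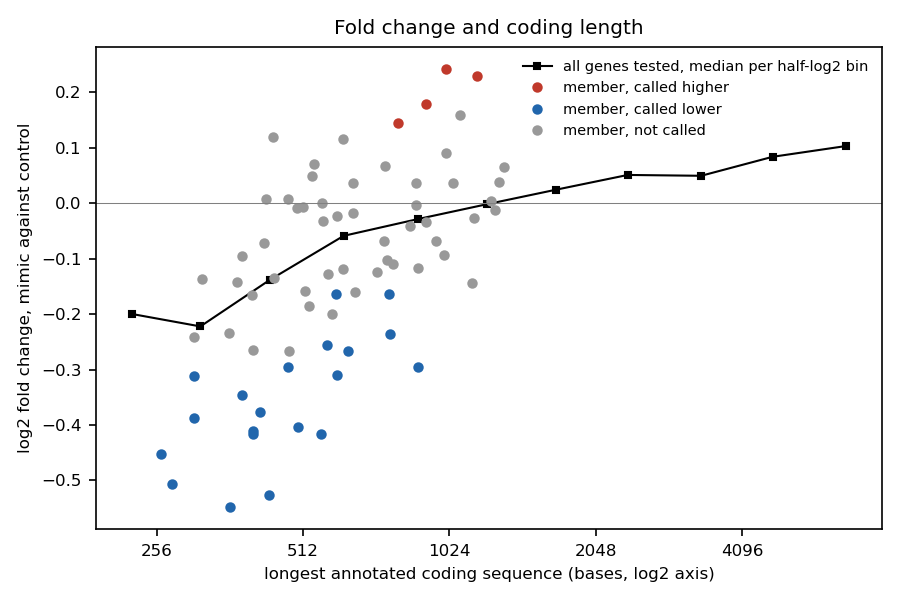
Log2 fold change (vertical axis, mimic against control) against the longest annotated coding sequence (horizontal axis, bases, log2 scale) for the 74 members, coloured by call, with the median of all genes tested in bins of coding length (black squares). The black line rises from about -0.20 at 228 bases to 0.10 at 6714 bases, and the 4 higher members lie above it while the 20 lower members lie below it.

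After each library was corrected for the trend with transcript length, 16 members were lower (14.9% of all genes), 10 higher (16.4%; 31.3% in either direction) and the median was -0.04; 16 of the 20 lower and all 4 higher calls were kept. Correction for coding length left 15 lower (15.6%) and 10 higher (17.4%; 33% in either direction), a median of -0.03, and kept 15 and 4 of the calls. Under it Mrpl34 measured -0.27, Mrps21 -0.21, Mrpl36 -0.18 and Mrpl52 -0.37, and Mrpl1 0.26 and Mrps9 0.23. The transcript length correction ended the calls of Mrpl28 (-0.02), Mrps11 (-0.10), Mrps12 (-0.19) and Mrps15 (-0.08; limma adjusted p of 0.0517 to 0.759). The coding length correction ended those of Mrpl28 (-0.12), Mrpl57 (-0.10), Mrps11 (-0.17), Mrps14 (-0.18) and Mrps26 (-0.09; limma adjusted p of 0.0504 to 0.198). The counts and the median differed from those of the main fit under both corrections. A length correction takes out any difference that goes with length, whatever its origin, and the part of length was not tested.

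Genes that belong to other mitochondrial or ribosomal groups were set beside the members. Cytosolic ribosomal proteins had 48 of 80 lower and 1 higher (median -0.30), and nuclear subunits of the respiratory chain 42 of 79 lower and 1 higher (median -0.25), against 14.6% lower and 15.4% higher of all genes. Without mimic replicates 3, 4 and 6 they had 13 and 7 lower (medians -0.18 and -0.14), where 6.83% of all genes were lower. After the transcript length correction they had 43 and 33 lower (medians -0.17 and -0.12), where 14.9% of all genes were lower. Their median coding lengths were 454.5 and 429 bases, close to that of the shorter-coding members, of which 14 of 37 were lower and none higher (median -0.20). The longer-coding members had 6 of 37 lower and 4 higher (median -0.03). In each of mimic replicates 2 to 6 both comparison lists and the shorter-coding members had negative medians, and in mimic replicate 1 they stood at -0.01, 0.05 and 0.08. No test of these differences was made.

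**Figure D5:**
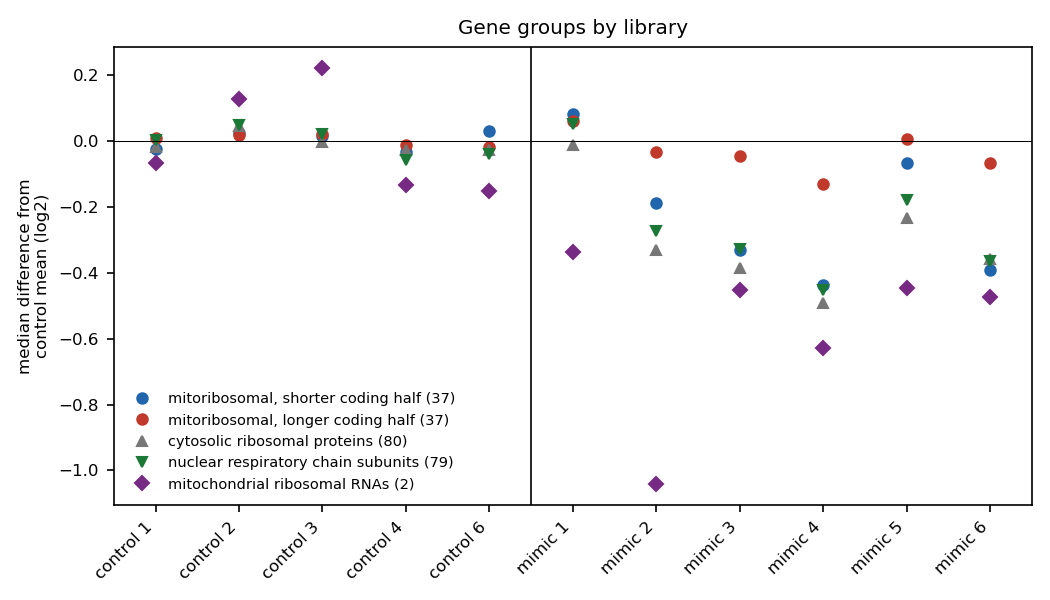
Median difference from the control mean (vertical axis, log2) in each library (horizontal axis) for mitoribosomal genes split at a coding length of 594 bases (blue shorter, red longer), cytosolic ribosomal proteins (grey), nuclear respiratory chain subunits (green) and mitochondrial ribosomal RNAs (purple). The blue, grey and green symbols lie between -0.07 and -0.49 in mimic replicates 2 to 6, the red symbols between -0.13 and 0.01, and the purple symbol reaches -1.04 in mimic replicate 2.

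The 2 RNAs on which the members assemble were both lower. mt-Rnr1, the small subunit RNA, stood at 5.19, 5.20, 5.32, 4.82 and 4.90 log2 CPM in control and at 4.00 to 4.74 (median 4.59) in mimic libraries. The groups did not overlap, and the log2 fall was 0.56 ± 0.126 (SE; limma adjusted p = 0.006). mt-Rnr2, the large subunit RNA, stood at 9.29, 9.67, 9.73, 9.53 and 9.41 in control and at 8.53 to 9.35 (median 8.98) in mimic libraries, where replicate 1 lay within the control range, and fell by 0.57 ± 0.131 (SE; limma adjusted p = 0.008). Without mimic replicates 3, 4 and 6 the log2 differences were of like size, -0.69 for mt-Rnr1 and -0.52 for mt-Rnr2, in fewer libraries, and missed the threshold (limma adjusted p = 0.058 and 0.159). After the transcript length correction they were -0.38 and -0.48 (limma adjusted p = 0.067 and 0.015). Of 13 listed messages of the mitochondrial genome, 9 were found by name and 7 were tested. mt-Nd4l, mt-Co2, mt-Atp6 and mt-Atp8 were not found, and mt-Nd3 and mt-Co3 had 0 to 3 reads over a group, so the list is incomplete. By limma, none of the 7 tested messages was called (median 0.03), 1 had an unadjusted p below 0.05, and voom weights called 1 higher. Without mimic replicates 3, 4 and 6 their median was -0.15 and 1 was lower, mt-Nd2 (-0.21, limma adjusted p = 0.0126), named after its value was seen. The RNA selection used for the libraries is not given in the sources used here.

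Ribosomal proteins of the mitochondrion with other names had 1 of 6 higher and 1 lower (16.7% each, against 15.4% and 14.6% of all genes). Dap3, a GTP-binding protein of the small subunit, rose by 0.20 ± 0.046 (SE; limma adjusted p = 0.005), and Aurkaip1 of the small subunit measured -0.28 ± 0.097 (SE; limma adjusted p = 0.042). Ict1, which the naming scheme also calls Mrpl58 and which frees stalled chains, measured -0.13 ± 0.070 (SE; limma adjusted p = 0.165). Of 26 assembly factors (7.69% called in each direction, against 15.4% higher and 14.6% lower over all genes) 2 were higher, Fastkd2 (0.20) and Mterf3 (0.19), and 2 lower, Mpv17l2 (-0.18) and Rbfa (-0.15), which acts on the small subunit RNA (limma adjusted p of 0.014 to 0.035); Fastkd2, Mterf3 and Rbfa have the smallest p of the list, and Mpv17l2 was added after its value was seen. Of 15 tested translation factors 26.7% were higher and 6.67% lower, against 15.4% and 14.6% of all genes. The 4 higher were Guf1 (0.23), Gfm2 (0.17), which recycles ribosomes, Mtif2 (0.22), the initiation factor, and Mtrf1 (0.23), named after its value was seen (limma adjusted p of 0.016 to 0.044). Tufm, which delivers aminoacyl transfer RNA, was the 1 lower factor (-0.26 ± 0.090 SE, limma adjusted p = 0.042), and Lrpprc, which stabilises mitochondrial messages, measured 0.12 ± 0.050 (SE; limma adjusted p = 0.070).

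The next 3 lists had shares of higher calls below the 15.4% of all genes, at 5%, 11.1% and 10%, and shares of lower calls of 0%, 11.1% and 20% against 14.6%. The first list held 20 genes: mitochondrial aminoacyl transfer RNA synthetases, with Gatb, Gatc and Qrsl1, which encode subunits of an amidotransferase. By limma 1 was higher, Iars2 (0.10), and none lower. At an unadjusted limma p below 0.05 were 2, both higher, and voom weights gave 3 higher and 3 lower. Among 9 genes of mitochondrial DNA transcription and replication, Tfam, which packages the genome, was higher (0.14 ± 0.047 SE, limma adjusted p = 0.037) and Polg, the DNA polymerase, lower (-0.12 ± 0.043 SE, limma adjusted p = 0.043), while Polrmt, the RNA polymerase, measured -0.19 ± 0.071 (SE; limma adjusted p = 0.054). Among 10 regulators of nuclear genes for mitochondria, Ppargc1b (-0.30) and Esrra (-0.20) were lower and Gabpb2 (0.26), a subunit of an ETS family complex, higher (limma adjusted p of 0.022 to 0.032). Of the called genes in these partner lists, Dap3, Mterf3 and Ppargc1b kept their calls without mimic replicates 3, 4 and 6. After the transcript length correction the calls of Mpv17l2 (-0.01), Rbfa (-0.04), Aurkaip1 (-0.14), Tufm (-0.19), Tfam (0.11) and Iars2 (0.05) were lost (limma adjusted p of 0.065 to 0.918). The same correction newly called Polrmt (-0.22), Twnk (-0.26) and Yy1 (-0.18) lower and Rars2 (0.16) and Gatc (0.21) higher (limma adjusted p of 0.021 to 0.045). Polrmt aside, these are named after their values were seen.

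Over the 11 libraries, the genes outside the group whose log2 CPM most resembled the members' mean were Emp3 (Pearson r = 0.991), Pycard (0.988), Cst3 (0.988), Lsm4 (0.988) and Srgn (0.987). These values describe 11 libraries that share one treatment contrast.

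Reads of some members may be shared with other loci. Of the 74, 18 had another locus at 95% identity or more over at least 200 bases, among them 4 lower members (Mrps21, Mrpl48, Mrpl41 and Mrps26), and none of the higher. For Mrpl23, a pseudogene copy was identical over 507 bases. In 17 members over 10% of exonic bases overlapped another gene, among them Mrpl43, Mrpl12, Mrpl14 and Mrps24 of the lower members and none of the higher. The strand setting of the counting is not given in the sources used here, so overlapping genes cannot be separated in these members.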

How the data were processed

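RNA sequencing of 5 control and 6 mimic libraries was analysed. Per the submitters' processing notes, the authors used STAR, Subread featureCounts and edgeR; versions, genome build, annotation and strand setting are not given in the sources used here. Deposited by the authors were log2 CPM values per gene and library, with their own log2 fold changes and adjusted p-values. Whole reads were recovered from the deposited values (100% whole within 0.01 read). Genes reaching log2 CPM -1 in 5 or more libraries were fitted with limma 3.58.1 (trend and robust, group term only), with Benjamini-Hochberg adjustment over 12969 genes. Gene positions and lengths came from GENCODE on GRCm38, matched for 99.3% of genes, and promoters from RefSeq. Length corrections used lowess (span 0.3) per library. Other scalings, filters, pseudocounts, voom weights, thresholds, a replicate block and omitted libraries were alternatives; leaving out mimic replicates 3, 4 and 6 was planned because earlier results set them apart. Members and lists were chosen with earlier results of these data known. Genes given in full were up to 8 called members of smallest p in each direction (4 were higher), the 3 largest rises and falls, the 3 highest and 2 lowest levels and 8 fixed names (Mrpl58 as Ict1). Fits were run on simulated data with equal spread in both groups and no shift shared by the genes of a library. That run does not test calls under the larger mimic spread and the shared library shifts seen here.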

Additional observations from a re-analysis of the deposited data

Results flagged for a closer look

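In 2 cases, a group of values held a library far from the others, among 48 groups checked (23 named members and the members' median, in control and mimic), where chance marks about 1 in 20. Mrpl45 stood at 4.02 log2 CPM in control replicate 4, and the other control libraries lay between 4.113 and 4.15. Mrps21 stood at 5.13 log2 CPM in mimic replicate 1, and the other mimic libraries lay between 4.513 and 4.708.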

How the results depend on the processing

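The 4 higher and 20 lower members became 10 and 16 with the transcript length correction and 10 and 15 with the coding length correction, which was added after seeing the data, with medians of -0.03773 and -0.02654. They became 2 and 15 without a filter on low values, 4 and 12 without the trend and robust settings, 5 and 31 with voom sample weights (median -0.1352) and 3 and 3 without mimic replicates 3, 4 and 6 (median -0.0265). At an adjusted p below 0.01 they were 2 and 6. With each library left out in turn, 4 to 5 were higher and 13 to 30 lower, with medians of -0.1384 to -0.08289. With the replicate number as a block, and without mimic replicate 5, which has no control of its number, 4 were higher and 20 lower (18 of the 20 kept, median -0.1289). With group means removed, same-numbered libraries correlated at -0.061 to 0.062 over all genes tested, and 1 of 5 correlated best with its own number. Whether the numbers pair the libraries cannot be told from this, because the origin of the replicates is not given. The other alternatives gave 4 to 6 higher and 20 to 25 lower. The share of all genes called is not given here without a filter or without the trend and robust settings. Nor is it given for the stricter threshold, the replicate block, some single omissions and these other alternatives. Member counts under those settings therefore cannot be set against all genes. Over 23 named members, 496 alternative values kept their side of the threshold, 40 lost a call, 15 gained one and none reversed. Mrpl1, Mrps9, Mrpl34, Mrpl36 and Mrps28 kept their calls in all 24 alternatives, and Mrpl14 and Mrps12 lost theirs in 12 each. The cause was not tested. Depth limits Mrpl23, Mrps23 and Mrpl53, and p-values rest on 11 libraries of unstated origin.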
